A study of Mus musculus with 216 samples.

Results

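Heart muscle of 6-month-old male mice was set against 5 other tissues of mice of the same age, across all genes. The heart group is made of the 12 libraries that the labels give as young heart, 1 at each circadian time from CT 18 to CT 62 in steps of 4 h, out of 216 libraries in the whole series. The comparison group is made of the 60 young libraries of adrenal gland, hypothalamus, kidney, lung and skeletal muscle, 12 of each at the same circadian times. All mice were C57B6/J-NIA males with no treatment or allele named in the labels, and the series also holds the same tissues at 18 months (aged) and 27 months (old). RNA was extracted with Trizol and sequenced from poly(A)-selected libraries, and each library pools 2 samples, so no library shows the spread between single animals. Each library is therefore a single pool at a single time. The p-values for differences below set a difference against the spread of pools around a fitted daily curve, estimated over the 6 tissues together.

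Heart muscle cells shorten by sliding thick filaments of myosin past thin filaments of actin, under the control of calcium released from the sarcoplasmic reticulum at each beat. They share this machinery with skeletal muscle but build much of it from other members of the same gene families, are coupled to each other end to end at the intercalated disc, and burn mostly fatty acids in a dense population of mitochondria. Ventricular and atrial muscle differ in some of these proteins, and the heart also secretes natriuretic peptides, hormones that lower blood pressure and blood volume.

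Both genes given as heart markers were high in every heart library. Myh6, the gene of the alpha myosin heavy chain, the main motor of adult mouse heart, is on chromosome 14 (GRCm38, chr14:54941921-54966927, minus strand). Its counts-per-million level (CPM, a gene's count scaled to a common library total) had a lowest value of 15899, a median of 19466 and a highest value of 21878 over the 12 heart libraries. Outside heart, Myh6 lay between 28.9 and 672 CPM in adrenal gland, between 14.4 and 409 in lung, between 1.48 and 7.13 in skeletal muscle, and under 1 CPM in every library of hypothalamus and kidney. Nppb, the gene of brain natriuretic peptide (chr4:147985788-147987205, plus strand), ranged more widely, from 84.3 CPM through a median of 305 to 483 CPM in heart, against at most 6.35 CPM in any of the 60 other libraries. No heart library overlapped another tissue in either gene. The label of the heart libraries thus holds in all 12.

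The adrenal and lung libraries carried genes of cardiac muscle themselves, above the levels in hypothalamus and kidney. The adrenal library at CT 54 had the highest Myh6 of the 60, 672 CPM. It differed from the other 11 adrenal libraries in a marker of its labelled tissue and a marker of fat. Its Cyp11b1, a steroid enzyme of the adrenal cortex, was at 123 CPM where the other 11 adrenal libraries had 1655 to 2702, and its Adipoq, the fat hormone adiponectin, at 1414 CPM where they had 338 to 726. All adrenal libraries carried fat genes: 6 adipocyte markers summed to between 2668 and 7404 CPM there and to between 0.642 and 5.19 CPM in heart. How much of any difference between heart and these tissues this accounts for was not tested. Without the adrenal library at CT 54 the count of genes high in heart, defined below, was 533 rather than 514, and that of low genes 517 rather than 495. In the gene lists used below, calcium handling then had 5 high genes rather than 6, and the related gene pairs 18 rather than 19. The high counts of the other lists did not change. With adrenal gland and lung both left aside 1082 genes were high. Library totals were lower in heart (9438150 to 13766042 counts) than in the other tissues (14771602 to 29416159). Mitochondrially encoded genes took 7.09 to 9.53% of heart counts and at most 4.64% elsewhere, and 20229 to 21442 genes had a count in a heart library. All 66 pairs of heart libraries differed by more than sampling noise (chi-square per degree of freedom of 3.98 to 55.4 over 12830 genes).

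Promoter stretches of 5 genes that were high in heart are shown because their genes code for the sarcomere and the calcium store described next. They were picked among promoters that hold a match. Those of Tnni3, Lmod2, Csrp3, Ryr2, Dsp and Nppa, among others that were also high, held none, nor did another promoter of Tnnt2. Each runs 5′ to 3′ on the gene's strand up to its transcription start or, for Actc1 and Myh6, up to the first annotated exon base in the window (RefSeq, GRCm38.p6). The Myh6 stretch lies inside the gene coordinates given above, which come from another annotation (GENCODE) with an earlier start. Its distance below is counted from the RefSeq start. Capitals mark matches, on either strand, to motifs of factors known from muscle genes: MEF2, the serum response factor box (CArG), the MCAT element CATTCC and the GATA element AGATAA.
Tnnt2, chr1:135836084-135836333, plus strand, MCAT and GATA: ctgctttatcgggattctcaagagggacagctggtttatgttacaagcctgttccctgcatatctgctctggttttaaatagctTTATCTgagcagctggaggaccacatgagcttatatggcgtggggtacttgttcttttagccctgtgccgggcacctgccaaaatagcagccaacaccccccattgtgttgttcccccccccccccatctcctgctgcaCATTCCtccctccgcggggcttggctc
Mybpc3, chr2:91117894-91118143, plus strand, MEF2: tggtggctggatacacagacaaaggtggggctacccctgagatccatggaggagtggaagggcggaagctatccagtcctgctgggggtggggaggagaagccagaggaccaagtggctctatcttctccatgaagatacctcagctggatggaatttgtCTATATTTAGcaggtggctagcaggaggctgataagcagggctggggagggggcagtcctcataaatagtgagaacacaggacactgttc
Actc1, chr2:114052888-114053125, minus strand, CArG: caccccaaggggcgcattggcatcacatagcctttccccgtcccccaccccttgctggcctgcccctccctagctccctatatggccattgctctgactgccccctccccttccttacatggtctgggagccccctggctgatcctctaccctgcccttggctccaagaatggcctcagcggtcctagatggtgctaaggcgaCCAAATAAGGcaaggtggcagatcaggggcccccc
Casq2, chr3:102086165-102086414, plus strand, MEF2: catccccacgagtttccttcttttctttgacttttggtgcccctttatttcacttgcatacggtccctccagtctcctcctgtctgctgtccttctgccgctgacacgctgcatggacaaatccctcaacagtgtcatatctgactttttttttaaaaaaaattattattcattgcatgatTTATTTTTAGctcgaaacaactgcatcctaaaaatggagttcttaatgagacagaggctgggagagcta
Myh6, chr14:54966642-54966857, minus strand, MCAT: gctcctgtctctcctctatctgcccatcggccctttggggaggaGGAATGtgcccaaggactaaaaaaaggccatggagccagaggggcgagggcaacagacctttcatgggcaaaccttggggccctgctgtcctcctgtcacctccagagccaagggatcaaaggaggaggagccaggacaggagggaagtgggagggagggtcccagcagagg
The matches begin 27 (MCAT) and 166 bases (GATA) before the Tnnt2 start, 90 before that of Mybpc3, 47 before that of Actc1, 69 before that of Casq2 and 206 before that of Myh6. Of all 32851 promoters of the same length in the reference, 2.92% hold a MEF2 match, 1.47% a CArG match, 12.6% an MCAT match and 9.99% a GATA match. Over the 17939 promoters of genes tested here these shares were 1.88%, 1.204%, 11.3% and 6.83%. Of 389 promoters belonging to 307 of the 514 genes high in heart the shares were 3.86%, 2.06%, 13.6% and 12.9%. Among 21 promoters of 17 of these genes that are in the lists of filament, Z disc and intercalated disc genes, 2 held MEF2, 2 CArG, 7 MCAT and 6 GATA. For the other 3 motifs searched (the estrogen-related receptor element AAGGTCA, the E-box CACGTG, and the NKX element CACTTAA) the shares were 3.08, 5.40 and 2.31% of the promoters of high genes, 3.28, 7.48 and 1.67% of those of tested genes, and 4.08, 6.02 and 2.10% of all promoters. A match is a string of letters in a window, and no test was made of these shares.

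Of 20682 genes with enough counts to test, 514 (2.49%) were high in heart, that is, at least 2-fold above each of the 5 tissues with an adjusted p under 0.05 in each comparison. Another 495 (2.39%) were low, at least 2-fold below each of them by the same test. Without a minimum fold, 1585 genes (7.66%) were higher in heart than in each tissue and 1797 (8.69%) were lower. Skeletal muscle was the tissue with the level nearest to heart for 227 of the 514 high genes and for 197 of the 495 low ones. When only the 4 tissues other than muscle were required, 1468 genes were high. In 623 genes (3.01% of those tested) all 12 heart libraries lay above all 60 others in CPM, and 367 of these were among the high genes. The reverse held for 424 genes (2.05%), 120 of them low genes. The values nearest the 2-fold line were those of Tbx18, just inside with a log2 difference of 1.003 from its nearest tissue, and of the mitochondrial ribosomal RNA gene mt-Rnr1, just outside with 0.998.

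Taken tissue by tissue, heart differed in most genes. Against skeletal muscle 7511 genes (36.3%) were higher and 7437 (36%) lower in heart, 72.3% in all. Against kidney 7660 (37%) were higher and 9064 (43.8%) lower, 80.9% in all. Against lung the numbers were 6668 (32.2%) and 10273 (49.7%), 81.9% in all, and against adrenal gland 6663 (32.2%) and 10294 (49.8%), 82% in all. Heart was furthest from hypothalamus by this count, with 7503 genes (36.3%) higher and 10448 (50.5%) lower, 86.8% in all. Against the mean of the 5 tissues 6674 genes (32.3%) were higher and 9391 (45.4%) lower, 77.7% in all, so 41.5% of the calls were higher in heart. These differences are scaled so that most genes are taken to be equal across tissues (TMM). Relative to heart that scaling moves log2 values by 0.62 for lung, 0.59 for adrenal gland, 0.41 for hypothalamus, 0.20 for kidney and -0.28 for muscle. With library totals alone, the scale of the CPM values, the median log2 difference from the mean of 5 tissues over all genes is -0.61 in place of -0.31, and 30.4% of the calls are higher in heart. The counts of genes are then 472 high and 555 low. Differences below are log2 differences on the TMM scale with approximate standard errors (SE) worked back from the test. They are against the tissue in which the gene was next highest unless another is named, and levels are CPM.

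The 12 genes with the largest gap to their nearest tissue included sarcomere genes, the transcription factors Nkx2-5 and Irx4, and 4 non-coding transcripts, Gm31013, Gm31251, D830005E20Rik and Mhrt. Among genes of at least 10 CPM in heart, the lincRNA Gm31013 stood first, with 9.30 to 17.4 CPM (median 14.5) in heart and at most 0.303 elsewhere, a difference of 8.66 ± 0.35. Lrrc10, which codes for a leucine-rich repeat protein of the heart muscle sarcomere (chr10:117045341-117046768), followed with 107 to 256 CPM (median 173) and a difference of 8.14 ± 0.25 from adrenal gland. Nkx2-5, the homeobox factor that sets heart identity in the embryo (chr17:26838664-26845009), was at 62.1 to 99.7 CPM (median 83.1) and differed by 7.97 ± 0.37. All 12 heart libraries were above all others in each of these. Mov10l1, an RNA helicase gene known from the piRNA pathway of the testis (chr15:88982909-89055152), had 80.3 to 97.1 CPM, with a difference of 7.90 ± 0.25.

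**Figure D1:**
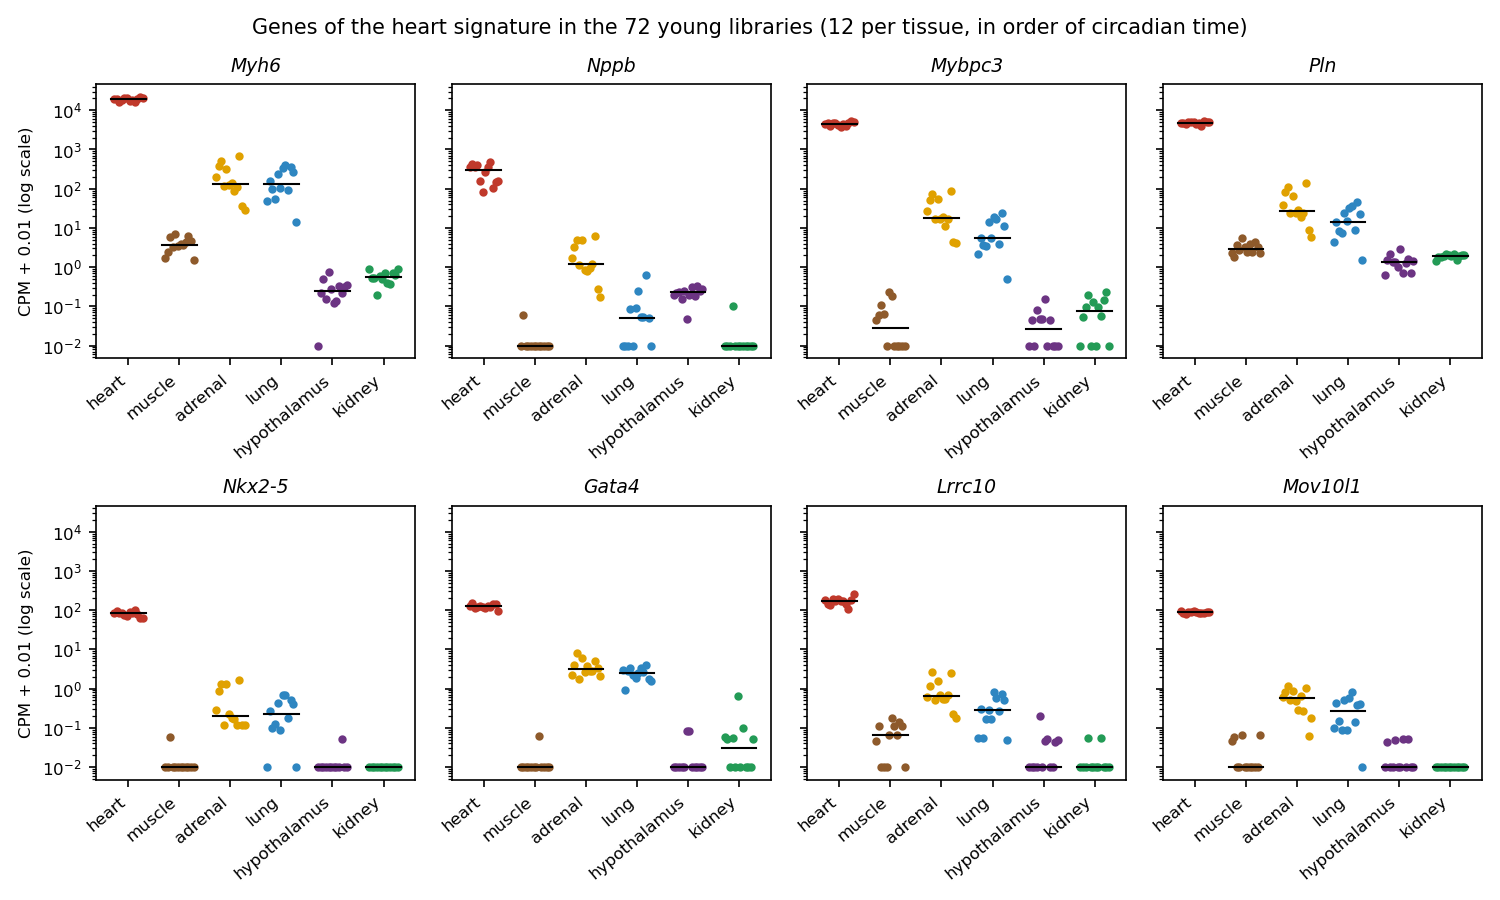
Levels of 8 genes high in heart in the 72 young libraries, in CPM on a log axis after adding 0.01, with 12 points per tissue in order of circadian time and a black bar at the median. The heart points of Myh6 lie between 15899 and 21878 CPM, and those of the adrenal gland and lung between 14.4 and 672 CPM.

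In the thick filament, 6 of 12 listed genes were high in heart and none low, and the median difference from the mean of 5 tissues was 6.79 against -0.31 over all genes. This list and those below were chosen with earlier results of these data known, so their counts and medians are description only. Mybpc3, cardiac myosin-binding protein C (chr2:91118144-91136516), ran from 3843 to 5203 CPM with a median of 4545. The next tissue was adrenal gland with 4.20 to 88.6 CPM, and the difference was 7.80 ± 0.44 (adjusted p = 8.18e-24). Mylk3, the kinase that phosphorylates the ventricular regulatory light chain, lay at 580 to 836 CPM (median 685), 6.33 ± 0.30 above lung. Its substrate Myl2 ran from 2906 to 4209 CPM (median 3767), and muscle, where slow fibres use the same light chain, from 77.5 to 355 CPM. None of these heart values overlapped another tissue. The essential light chain gene Myl3 was similar, with 3373 to 4950 CPM in heart, 154 to 669 in muscle and a difference of 3.43 ± 0.32.

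The members of the thick filament list that did not pass were either shared with skeletal muscle or near 0. The giant spring protein gene Ttn had a median of 3380 CPM and at most 5276 in heart, and up to 12028 CPM in muscle, a difference of -1.80 ± 0.31. Myh7, the slow beta myosin heavy chain of embryonic ventricle and slow skeletal fibres, overlapped muscle, with 230 to 545 CPM (median 294) in heart and 167 to 965 (median 396) in muscle. Its difference of -0.74 ± 0.33 had an adjusted p of 0.0391, and with any 1 heart library left out other than those at CT 22, 34 and 46 the adjusted p was 0.0522 or more.

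In the thin filament list, which also holds the troponin I-interacting kinase gene Tnni3k, 7 of 10 genes were high, Tnni3k among them. Actc1, cardiac alpha actin, had 5781 to 7634 CPM (median 6360) in heart against 36.1 to 166 in muscle, a difference of 5.85 ± 0.40 (adjusted p = 5.83e-20). Tnnt2, cardiac troponin T, had 5311 to 7207 CPM (median 6095), 6.56 ± 0.39 above lung. Tnni3, cardiac troponin I, had 2627 to 3999 CPM (median 3430) and stood 6.64 ± 0.36 above lung. These 3 are cardiac forms with separate skeletal genes, and in all of them the heart libraries lay above every other library. The slow troponin C gene Tnnc1, shared with slow skeletal fibres, was at 1500 to 2371 CPM and 3.87 ± 0.36 above muscle. Tropomyosin gene Tpm1 was lower than in muscle (-0.52 ± 0.10), and the pointed-end capping gene Tmod1 did not pass (-0.17 ± 0.08, adjusted p = 0.0578).

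The Z disc and intercalated disc are the structures that anchor thin filaments and join neighbouring cells. Of 22 genes listed for them, all 22 were above the mean of 5 tissues (32.3% of all genes were) but 9 were high against each. The list also holds the splicing factor gene Rbm20, which was not high. Ankrd1, a stress-responsive ankyrin repeat protein, ran from 1052 to 1756 CPM with a median of 1351, 5.40 ± 0.32 above lung. Dsp, desmoplakin, the linker of desmosomes to intermediate filaments, had 924 to 1947 CPM (median 1317), 3.98 ± 0.27 above lung. Csrp3, muscle LIM protein, had 1160 to 1643 CPM and 38.4 to 196 in muscle (3.73 ± 0.39). The other desmosome and junction genes that were high stood less far out. Pkp2 was 2.08 ± 0.19 and Dsg2 2.48 ± 0.17 above lung, N-cadherin gene Cdh2 1.19 ± 0.11 above hypothalamus, and connexin 43 gene Gja1 1.01 ± 0.08 above hypothalamus. Another 5 members were lower than in skeletal muscle, as were 36% of all genes, so they do not set the list apart. Xirp2, an actin-binding repeat protein, had 552 to 931 CPM in heart and 2446 to 4259 in muscle (-2.62 ± 0.36).

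In calcium handling 6 of 16 genes were high and 9 were above each tissue at any fold (7.66% of all genes were). Another 5 were lower than in skeletal muscle, as were 36% of all genes, so these 5 do not set the list apart. Pln, phospholamban, the brake on the calcium pump of the sarcoplasmic reticulum, had 4077 to 5360 CPM with a median of 4829. The highest other library, from adrenal gland, had 144 CPM, and the difference was 7.34 ± 0.42 (adjusted p = 7.79e-24). Of its exon bases 64.7% are shared with other annotated genes on either strand, so its count depends on how shared reads were assigned, which the sources used here do not give. Atp2a2, the pump itself, had 6627 to 11012 CPM (median 8777), 3.94 ± 0.15 above kidney. Ryr2, the calcium release channel, had 869 to 1714 CPM (median 1069) in heart and 57.4 to 122 in hypothalamus, where it is also known to be used (4.17 ± 0.18). Casq2, the calcium-storing protein calsequestrin, had 904 to 1319 CPM (median 1093), 4.51 ± 0.34 above muscle.

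Other members of the calcium list were near 0 in heart. Sln, sarcolipin, another inhibitor of the pump, had no count in 5 heart libraries and at most 0.376 CPM, against 1.37 to 43.8 CPM in lung (-6.75 ± 0.75). Fkbp1b, calstabin of the release channel, had 0.436 to 1.31 CPM in heart and 12.1 to 19.2 in hypothalamus (-3.58 ± 0.17). Neither is a member of the low group, since another tissue was at or under the heart level in both.

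Among 24 ion channel and conduction genes 4 were high and 23 above the mean of 5 tissues (32.3% of all genes were). Kcnj5, a subunit of the acetylcholine-gated potassium channel, had 78.0 to 113 CPM (median 87.2), 3.05 ± 0.21 above hypothalamus. Kcnip2, the subunit that shapes the transient outward current, had 180 to 250 CPM (2.62 ± 0.13). The nearest tissue for both was hypothalamus, not muscle. Popdc2, a cyclic AMP-binding membrane protein, had 475 to 613 CPM and was nearest to muscle (2.57 ± 0.16). The calcium channel gene Cacna1d, known from pacemaker tissue, differed from hypothalamus by -4.10 ± 0.20.

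Of 8 genes of cardiac hormones, related secreted factors and receptors 3 were high: Nppa, Nppb and Corin. Nppb differed from adrenal gland by 7.55 ± 0.33 (adjusted p = 1.53e-23). Nppa, atrial natriuretic peptide, had 160 to 298 CPM (median 241) in heart, 0 to 73.8 in lung and a log2 difference of 4.398 ± 0.50, and 61.5% of its exon bases are shared with a gene on the opposite strand. Corin, the protease that activates both precursors, had 149 to 293 CPM (median 217), 5.17 ± 0.27 above kidney. The secreted factors Gdf15 and Ctf1 and the receptors were not high. Npr1, the receptor of both peptides, had 25.8 to 42.2 CPM in heart and 154 to 652 in adrenal gland (-3.15 ± 0.10), and Npr3, the clearance receptor, differed from adrenal gland by -2.94 ± 0.22.

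Among 22 cardiac transcription factors 7 were high: Nkx2-5, Irx4, Myocd, Gata4, Tbx20, Prox1 and Tbx18. Gata4, a zinc finger activator of cardiac genes, had 97.3 to 153 CPM with a median of 124, and at most 8.33 CPM outside heart (5.66 ± 0.23, adjusted p = 6.85e-26). Myocd, myocardin, the partner of serum response factor, had 18.9 to 48.9 CPM (median 25.4), 5.94 ± 0.24 above lung. Irx4, which marks ventricle, had 34.1 to 52.0 CPM and no count in any lung or muscle library. Tbx20 had 81.0 to 127 CPM in heart and up to 35.8 in adrenal gland (2.61 ± 0.24). Others in the list were near 0 in heart, among them Hand1 and Isl1, known from the heart's early progenitors, with means of 0.0152 and 0.00883 CPM.

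In adrenergic and muscarinic signalling, the nerve inputs that speed and slow the heart, 2 of 14 genes were high and 1 low. Chrm2, the muscarinic receptor through which the vagus slows the beat, had 83.2 to 195 CPM with a median of 119, 2.22 ± 0.16 above hypothalamus. Adra1b, an alpha adrenergic receptor, had 30.4 to 70.3 CPM (1.79 ± 0.20). Adrb3, the beta receptor of fat cells, was low, with at most 0.282 CPM in heart and 151 to 582 in adrenal gland. Adrb1, the main beta receptor of heart muscle, had a mean of 23.0 ± 4.62 CPM (SD, n = 12) and was lower than in lung (-1.09 ± 0.13). So the receptor genes did not share a direction.

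**Figure D2:**
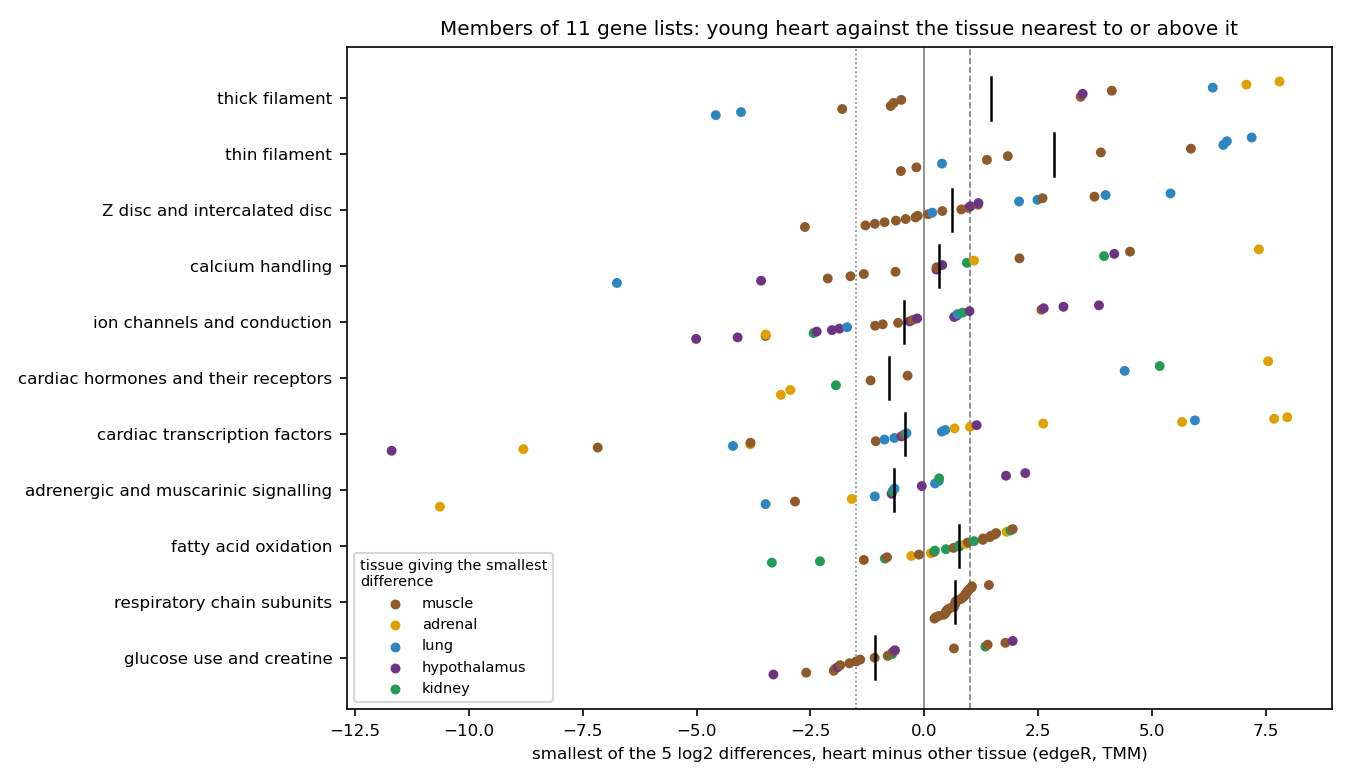
Smallest of the 5 log2 differences, heart minus other tissue, for each member of 11 gene lists, coloured by the tissue that gives it. That tissue is the one of the 5 where the gene is highest, so a value under 0 is not the gap to the closest tissue. A black bar is at each list's median, a dashed line at a 2-fold difference and a dotted line at the median of all genes tested, -1.50. The thin filament list has the highest median, 2.85, and all 27 respiratory chain members lie above 0.

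Respiratory chain genes were higher in heart as a whole list, by small steps over the nearest tissue. All 27 respiratory chain subunits were higher in heart than in each of the 5 tissues (7.66% of all genes were), in 26 of them with no overlap between libraries, but 3 of 27 were at least 2-fold above each. Their median difference was 2.33 against the mean of 5 tissues and 0.68 against the nearest. All 27 also stayed higher than each tissue with library totals alone, where 13 were 2-fold above each. Cox7a1, the muscle form of a cytochrome oxidase subunit, had 281 to 506 CPM (median 394) in heart and 87.5 to 165 in muscle (1.42 ± 0.15). Cox4i1 had 1174 to 1946 CPM (median 1647) and a difference of 1.05 ± 0.08. Sdha, a subunit of succinate dehydrogenase, had 1493 to 1865 CPM and 1049 to 1256 in muscle, a difference of 0.25 ± 0.06 (adjusted p = 0.000174).

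Of the 13 protein genes on the mitochondrial genome, 12 were higher in heart than in each tissue and 6 by at least 2-fold. The gene mt-Co1 had 16173 to 23027 CPM (median 18258) in heart and 8249 to 10821 in muscle, its nearest tissue, a difference of 0.62 ± 0.06 (adjusted p = 2.72e-13). The gene mt-Cytb had 11598 to 16090 CPM and a difference of 0.71 ± 0.07. With the mitochondrially encoded genes left out of the table, the counts of the other genes were 523 high and 485 low.

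Of 26 fatty acid genes 10 were high and 18 above each tissue at any fold (7.66% of all genes were). Lpl, lipoprotein lipase, which frees fatty acids from blood lipids, had 5680 to 7080 CPM with a median of 6406. Adrenal gland came next with 1383 to 6835 CPM and overlapped heart, and the difference was 1.81 ± 0.17. Fabp3, the fatty acid carrier of heart muscle, had 1812 to 2518 CPM (median 2312) in heart and 310 to 650 in muscle (1.94 ± 0.20). Decr1, an enzyme for unsaturated fatty acids, had 569 to 712 CPM (1.58 ± 0.09), and the thioesterase gene Acot2 was 1.89 ± 0.10 above kidney. Cpt1a, the liver form of the carnitine transferase, was at 41.0 to 83.8 CPM and lay furthest of the list below its highest tissue, kidney (-3.35 ± 0.09). The nuclear receptor gene Ppara was also below kidney (-2.29 ± 0.14).

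Of 19 genes of glucose use and creatine 4 were high and 17 above the mean of 5 tissues (32.3% of all genes were). But 11 were lower than in skeletal muscle (36% of all genes were). Mb, myoglobin, the oxygen store, had 5062 to 7560 CPM (median 6674) in heart and 1359 to 2742 in muscle (1.39 ± 0.37, adjusted p = 0.000711). Ldhb, the lactate dehydrogenase of oxidative tissue, had 1662 to 2271 CPM (median 2048), 1.34 ± 0.13 above kidney. Pygb, the brain form of glycogen phosphorylase, had 815 to 1280 CPM (1.94 ± 0.09), and the lactate transporter gene Slc16a1 was 1.78 ± 0.13 above muscle. The muscle phosphorylase gene Pygm had 1126 to 1481 CPM in heart and 5627 to 7371 in muscle (-2.59 ± 0.12). Ckb, brain creatine kinase, was lower than in hypothalamus (-3.31 ± 0.10).

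A set of 22 pairs of related genes was compared between heart and skeletal muscle. The measure was the first gene's share of the pair in CPM per kilobase of exon, a scale on which genes can be compared. In bulk tissue such a share cannot tell the form used in muscle cells from the content of other cells. Of these pairs 21 come from a list, of whose 44 genes 19 were high in heart, and the other is Myh6 with Myh7. Myh6 made up 98.6% of Myh6 plus Myh7 in heart (range 98.0 to 99.1%) and 1.34% in muscle, where Mhrt and other antisense genes overlap Myh7. Actc1 made up 94.0% ± 1.15 (SD, n = 12) of cardiac plus skeletal alpha actin (Acta1) in heart and 0.94% in muscle. Casq2 made up 98.6% of the calsequestrin pair in heart and 1.09% in muscle. In these pairs heart and muscle took opposite ends of the scale.

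Other pairs were less split. The calcium channel gene Cacna1c made up 69.2% of its pair with the skeletal gene Cacna1s in heart (range 60.9 to 74.3%) and 0.07% in muscle. Ldhb made up 84.1% of Ldhb plus Ldha in heart and 19.9% in muscle. Some mitochondrial and fatty acid genes had similar shares in both tissues. Cox6a2 made up 92.6% of its pair with Cox6a1 in heart and 96.2% in muscle, and Cox7a1 65.3 and 61.8% of its pair with Cox7a2. Fabp3 made up 94.7 and 93.3% of its pair with Fabp4, which is also in the endothelial list. Cpt1b, the muscle carnitine transferase, made up 24.6% of its pair with Cpt1a in heart, but 81.4% of its exon bases lie inside the read-through gene Gm44502, so its level is uncertain.

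**Figure D3:**
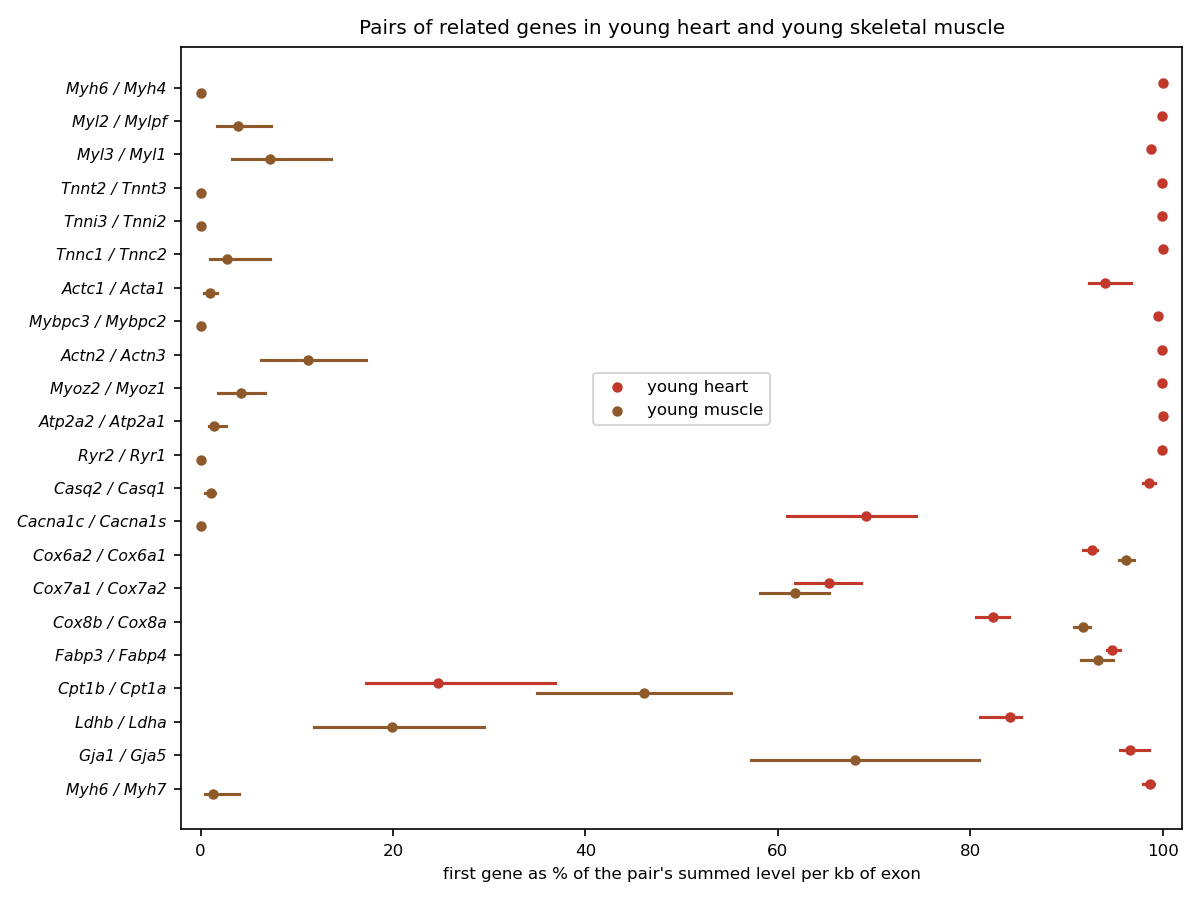
Share of the first gene in each of 22 pairs of related genes, in percent of the pair's CPM per kilobase of exon, in the 12 heart and 12 skeletal muscle libraries (dot, mean; line, range). Filament and calcium pairs such as Actc1 and Acta1 stand at 94.0% in heart and 0.94% in muscle, while Cox7a1 and Cox7a2 stand at 65.3% and 61.8%.

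The heart libraries carried ventricular more than atrial markers. Of 6 ventricular genes 4 were high (Myl2, Myl3, Irx4 and Kcnip2), with a list sum of 6847 to 9528 CPM against 515 to 1990 in muscle and 35.7 to 52.1 in lung. Of 7 atrial genes 6 could be tested, since Bmp10 had too few counts, and 1 was high, Nppa. Of these 6, 2 were above each tissue at any fold (7.66% of all genes were) and 4 above the mean of 5 tissues (32.3%). The atrial list summed to 286 to 403 CPM in heart, 18.4 to 23.9 in muscle and 45.2 to 479 in lung. The atrial regulatory light chain gene Myl7 had 0.242 to 3.81 CPM (median 1.65) in heart and 6.56 to 146 (median 56.5) in lung (-4.58 ± 0.32). The atrial essential light chain gene Myl4 had 1.89 to 5.31 CPM in heart and 8.98 to 193 in lung (-4.02 ± 0.29). In both, all 12 lung libraries were above all 12 heart libraries. Connexin 40 gene Gja5, of atrium, conduction system and arteries, had a median of 9.06 CPM and at most 12.2 in heart and 28.1 to 68.4 in lung.

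The cardiac genes found in adrenal gland and lung kept different proportions. In CPM as a percentage of Myh6 in the same library, Myl2 had a median of 19.0% in heart, 28.4% in adrenal gland and 0.211% in lung. Myl7 had 0.00934% in heart, 0.358% in adrenal gland and 38.3% in lung. Mybpc3 ranged from 19.9 to 25.3% in heart, 11.6 to 17.7% in adrenal gland and 3.36 to 6.83% in lung. Pln ranged from 23.2 to 27.3% in heart, 19.0 to 24.2% in adrenal gland and 8.45 to 14.1% in lung. Tnnt2 was nearer to even, with 31.9% in heart, 41.9% in adrenal gland and 58.5% in lung. The adrenal libraries thus carried the ventricular light chain beside Myh6, and the lung libraries the atrial one.

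**Figure D4:**
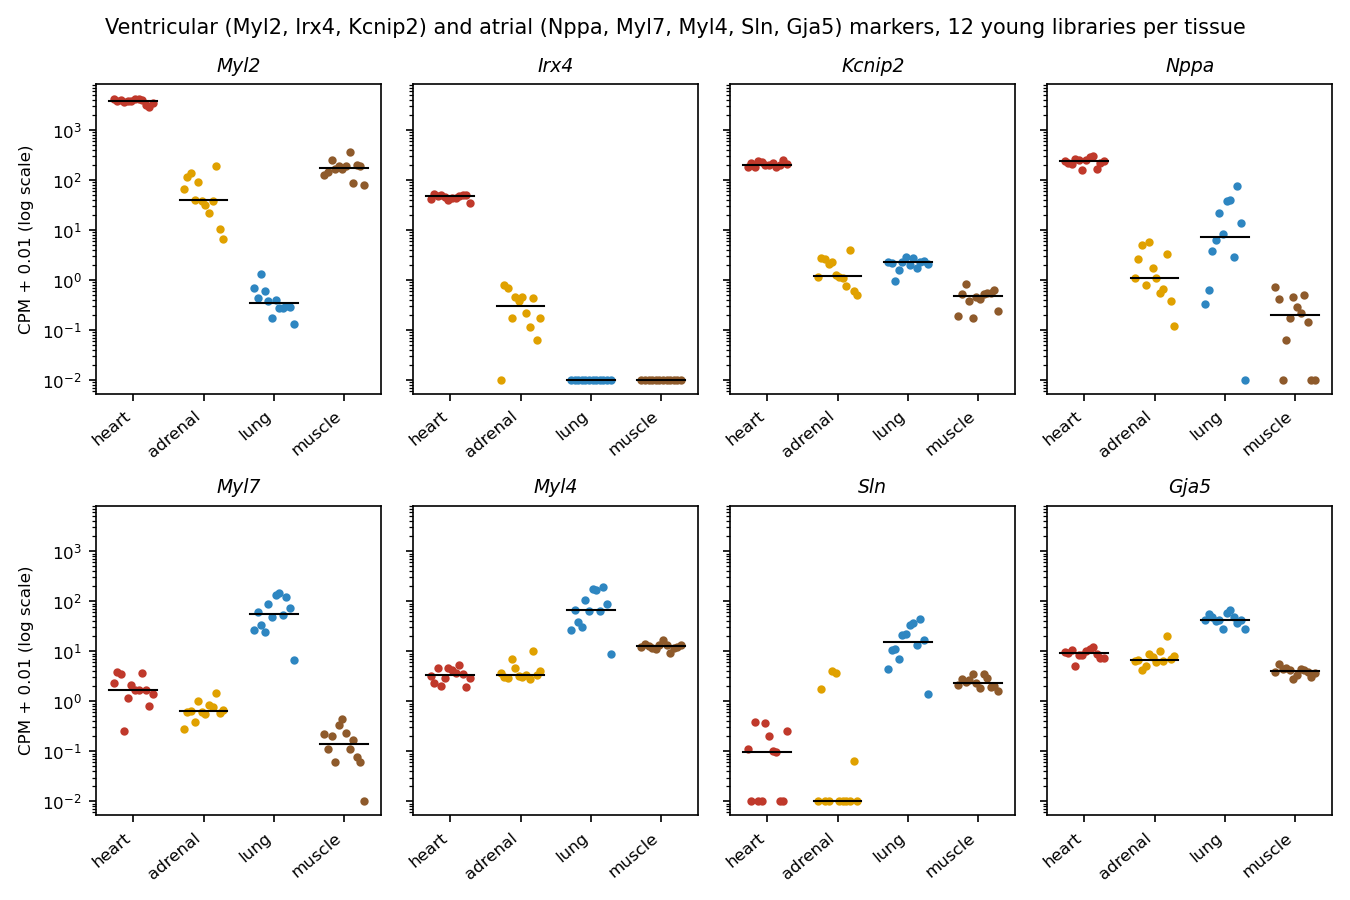
Levels of ventricular (Myl2, Irx4, Kcnip2) and atrial (Nppa, Myl7, Myl4, Sln, Gja5) genes in heart, adrenal gland, lung and skeletal muscle, in CPM on a log axis after adding 0.01, 12 libraries per tissue with a black bar at the median. Myl7 has a median of 1.65 CPM in heart and 56.5 CPM in lung.

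Markers of other cells of the heart wall were present, and few of them were high. Of all genes tested 2.49% were high, so none or 1 in lists this small does not set a list apart. Above each tissue at any fold were 1 of 10 endothelial, 1 of 9 fibroblast and 3 of 8 smooth muscle and pericyte genes, against 7.66% of all genes. No macrophage and lymphocyte, red blood cell or cell cycle gene was. With library totals alone Lum and Pdgfrb lost that call. In bulk RNA fewer cells of a type and less RNA per cell cannot be told apart. Of 10 endothelial genes 9 were above the mean of 5 tissues (32.3% of all genes were) and none was high. Emcn was above each tissue by a log2 difference of 0.32 or more, a call lost with library totals alone (-0.23). The endothelial sum was 1734 to 2941 CPM in heart and 3498 to 4716 in lung. Of 9 fibroblast genes 8 were above the mean of 5 and none high, with sums of 2230 to 3570 CPM in heart and 2349 to 9298 in adrenal gland. Of 8 smooth muscle and pericyte genes 1 was high, Kcnj8, a potassium channel of pericytes, with a mean of 60.9 CPM and a log2 difference of 1.08 from muscle. None of 8 macrophage and lymphocyte genes was high (sum 237 to 660 CPM in heart, 2830 to 4420 in lung), nor any of 5 red blood cell genes (729 to 2089 CPM in heart, 1431 to 4684 in lung). None of 9 cell cycle genes was high either, with sums of 67.7 to 88.5 CPM in heart and 170 to 220 in lung.

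Of 16 fast skeletal muscle genes none was high and 1, Pvalb, was low, and the list summed to 273 to 629 CPM in heart against 86293 to 107997 in muscle. Most of the heart sum was Acta1, with a mean of 388 CPM, and Myf6 had no count in heart. Of 6 adipocyte genes none was high or low, and 4 were below the mean of 5 tissues (45.4% of all genes were). Of 6 epithelial genes 2, Epcam and Cdh1, were low, Cldn4 had no count in heart, and the list summed to 3.49 to 14.8 CPM in heart and 1031 to 1789 in lung. Of 9 neuronal and glial genes 1, the myelin gene Mbp, was low, and the sums were 11.7 to 20.1 CPM in heart and 5908 to 7799 in hypothalamus. No gene of the lists of 5 markers each for lung, kidney, adrenal gland and hypothalamus was high or low. Their sums in heart were at most 0.0939 CPM for lung, 4.45 for kidney, 9.97 for adrenal gland and 1.41 for hypothalamus.

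The 8 low genes with the largest gap to their nearest tissue code for proteins of different kinds, and every other tissue carried at least 10 CPM of each on average. Of the 495, 56 had at least 10 CPM in each other tissue. Npnt, nephronectin, a matrix ligand of integrins, had 0.102 to 1.29 CPM in heart, at least 4.90 in every other library and 451 to 728 in lung, and its smallest fall was -3.77 ± 0.20, against hypothalamus (adjusted p = 5.42e-26). Sorl1, a sorting receptor of the endosome, had 8.29 to 20.3 CPM (median 11.5) in heart and at least 82.7 in every other library (-2.78 ± 0.10 against adrenal gland). Pak1, a kinase downstream of small GTPases, had 0.872 to 3.87 CPM in heart and 274 to 344 in hypothalamus (-2.84 ± 0.14 against adrenal gland). No heart library overlapped another tissue in these 3, nor in Dkk3, a secreted protein of the Dickkopf family (1.31 to 2.88 CPM), nor in Tmem56 (1.84 to 4.36 CPM).

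Other low genes overlapped 1 tissue. Scd1, the desaturase that makes monounsaturated fatty acids, had 16.6 to 59.2 CPM in heart, 39.8 to 341 in muscle and 6897 to 18506 in adrenal gland, with a smallest fall of -2.92 ± 0.26 against muscle. Cadm1, a cell adhesion molecule, had a median of 4.29 CPM and at most 5.73 in heart and 288 to 344 in hypothalamus (-2.68 ± 0.16 against muscle), and 1 adrenal library had 5.39. Pvalb, the calcium buffer parvalbumin of fast fibres, had at most 0.349 CPM in heart and 2611 to 3404 in muscle. Its adrenal values ran from 0 to 107 CPM around a median of 0.716, and its difference from adrenal gland, -5.37 ± 0.87, was -1.99 with an adjusted p of 0.461 in the last 6 circadian times alone. The call of Pvalb as low thus did not hold in every set of libraries.

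Non-coding genes made up a larger share of the high genes than of all genes tested. Of 511 high genes with an annotated type, 139 (27.2%) were long non-coding and 59 (11.5%) pseudogenes, against 13.8% and 5.58% of the genes tested (no test was made of these shares). Of the low genes 18.2% were long non-coding and 1.43% pseudogenes. Among the 514 high genes 313 had a mean of at least 10 CPM in heart. Whether the larger share of non-coding genes depends on their level was not tested. Mhrt, a non-coding RNA antisense to Myh7 (chr14:54968678-54974349, plus strand), had 57.8 to 97.6 CPM (median 75.7) in heart and at most 1.29 in muscle, its nearest tissue (7.12 ± 0.37). Gm31251, further along the same locus (chr14:54979393-54991601, plus strand), had 35.9 to 96.0 CPM (7.60 ± 0.36 above muscle). Of the exon bases of Mhrt 39.9% are shared with Myh7 on the opposite strand, and of those of Gm31251 41.9%. The strand setting of the counting is not stated. Muscle, with a median of 396 CPM of Myh7 against 294 in heart, had at most 1.29 CPM of Mhrt and 0.712 of Gm31251. The highest library outside heart was of lung for both, with 1.86 CPM of Mhrt and 1.12 of Gm31251. Whether reads of other genes at this locus add to these counts was not tested. D830005E20Rik, which lies antisense inside Trdn, a calcium release gene, shares no exon base with it and had 9.33 to 23.2 CPM in heart (7.23 ± 0.31 above lung).

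The same rule was applied to the 18-month and 27-month libraries, which the choice of genes at 6 months did not use. Of the 514 high genes 497 could be tested at 18 months, and 391 (76.1% of 514) passed the whole rule there, where 479 genes (2.31% of those tested) passed in all. At 27 months 483 could be tested and 360 (70.0%) passed, of 510 in all (2.62%). Of the genes that passed at 18 months 81.6% were high at 6 months, and of those at 27 months 70.6%. No gene high at 6 months was low at either age. Over the high genes that could be tested at the later age, the median difference from the nearest tissue was 1.72 at 6 months for either set, 1.60 at 18 months and 1.86 at 27. Of the 495 low genes 316 (63.8%) passed at 18 months, of 466 in all (2.24%), and 176 (35.6%) at 27 months, of 265 in all (1.36%). At these ages 488 and 459 of the 495 could be tested. The 27-month libraries of 4 of the tissues reached lower totals than at 6 months, with lowest totals of 1832925 counts in hypothalamus, 2700433 in lung, 3595165 in muscle and 5200916 in kidney, against 12288413 in heart. The lowest totals of the same tissues at 6 months were 23292164, 20993393, 15239373 and 21240585. Thinning the 6-month libraries to one total alone left 340 low genes, and the part of these totals in the lower count at 27 months was not tested.

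Myh6 stayed within its own spread across ages. It had a mean of 19040 ± 1817 CPM at 6 months, 18708 ± 1486 at 18 and 18518 ± 1308 at 27 (SD, n = 12 at each age). Nppb had 274 ± 140, 278 ± 177 and 391 ± 178 CPM in the same order, within its own spread. The low gene Dkk3 stood at 2.11 CPM at 6 months, 5.32 at 18 and 9.40 at 27, and was low at all 3 ages. The 12 genes with the largest differences among the high ones and the 8 among the low ones passed at both other ages.

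**Figure D5:**
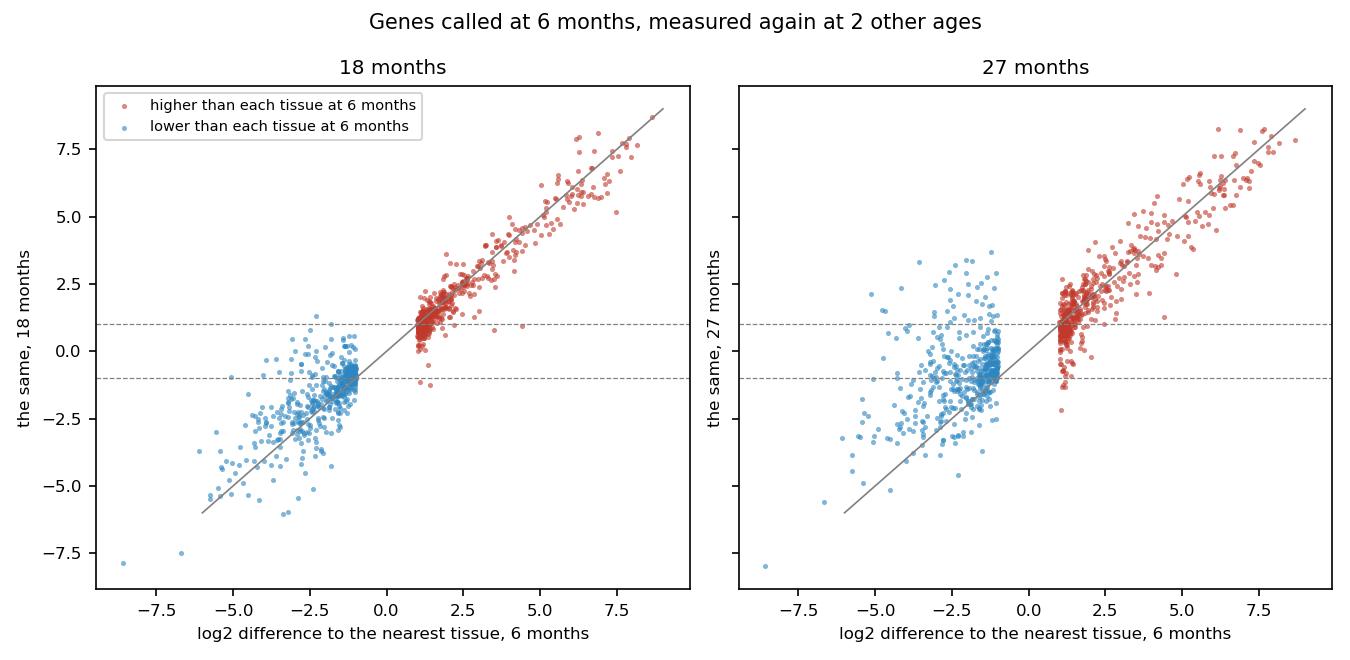
Log2 difference between heart and its nearest tissue at 6 months (horizontal) and at 18 or 27 months (vertical) for genes high (red) or low (blue) in heart at 6 months and tested at all ages, with the line of equal values and dashed lines at 2-fold. At 18 months 391 of 514 high genes and 316 of 495 low genes passed the same rule, and at 27 months 360 and 176.

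Few genes had a daily rhythm in young heart, among the high and low genes as among all genes tested. A daily rhythm in heart passed an adjusted p of 0.05 in 15 of the 514 high genes (2.92%) and 8 of the 495 low genes (1.62%), against 890 of all genes tested (4.30%). These shares were not tested against each other. Nppb had a ratio of 5.73 between its highest and lowest heart library and a rhythm p of 0.0557 (edgeR, adjusted).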

How the data were processed

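Poly(A) RNA-seq libraries of 6 tissues, 3 ages and 12 circadian times were used, with groups taken from the sample titles. The authors deposited whole-number counts per gene name and CPM in 1 table per kind. Alignment with HISAT2, counting with HTSeq and the builds GRCm38 and mm10 are named, per the submitters' processing notes, while versions, annotation and the strand setting are not stated there or in the labels. The deposited CPM equal a count over its library's total. Levels in the text are these CPM. Each standard error is the size of the log2 difference over the square root of the F statistic of its test. It is thus approximate, and covers the spread of libraries around the daily curve.

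Differences came from edgeR 4.0.16 (R 4.3.3) on the deposited counts of the 72 young libraries: filterByExpr by tissue with a minimum count of 10, TMM factors, a mean and a 24 h cosine and sine for each tissue, and robust quasi-likelihood tests, two-sided, with Benjamini-Hochberg adjustment over all 20682 genes tested in each contrast. A gene is high or low when all 5 contrasts pass 0.05 and a log2 difference of 1 in that direction. Names were 55376 in all, 11744 of them with no count. The same fit was made at 18 and 27 months. The fit was tested on simulated data. Genes named are the 2 markers, the 12 high genes (at least 10 CPM in heart) and 8 low genes (at least 10 CPM in each other tissue) with the largest gap to their nearest tissue, and members at the ends of each list. The heart members, gene lists and pairs were chosen with earlier results of these data known. Coordinates, exon overlap and types come from GENCODE M21 (GRCm38), which held 54486 of the names, and promoters from RefSeq. Alternatives were other scalings, DESeq2 1.42.0, no filter, other folds, fewer libraries, and thinning to the lowest total. A few genes that the lists or ranks would name are not reported here.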

Additional observations from a re-analysis of the deposited data

How the results depend on the processing

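The counts of high and low genes stayed within 1.5 times their values of 514 and 495 under most settings, from 472 and 555 with library totals alone, through 544 and 439 with DESeq2 and 544 and 461 with median-of-ratios factors, to 516 and 340 with all libraries thinned to the lowest total; the last 6 circadian times alone gave 535 and 346. Of the 514 high genes 398 were also high with library totals alone. The setting changed a count by over 1.5 times in these cases: with no filter on low counts 825 genes were high at 6 months, 605 at 18 and 570 at 27 (more genes were tested); with each contrast fitted on its own 24 libraries 137 were low; at a minimum of 4-fold 212 were high and 227 low; and with a test against 2-fold (glmTreat) 280 were low. Settings with library totals and with thinning were chosen after seeing the data. Leaving out 1 heart library at a time gave 523 to 543 high and 473 to 500 low genes, 16982 to 17052 genes called against adrenal gland, 17994 to 18060 against hypothalamus, 16691 to 16764 against kidney, 16925 to 16977 against lung, 14846 to 14949 against muscle and 15942 to 16052 against the mean of 5. For 169 named genes, 3889 of 4006 values computed under the settings kept their direction and side of the threshold, 73 lost the call, 36 gained it and 8 reversed; the 4-fold minimum and the test against 2-fold were not run gene by gene, and a setting does not give a value for every gene. The reversed ones are differences with library totals alone: Pde3a -0.29, Emcn -0.23, Gsn -0.59, Pdgfrb -0.35, Acta2 -0.59, C1qa -0.46, Hba-a1 -0.50 and Hbb-bs -0.55; that scaling itself shifts heart downwards by up to 0.62 against a tissue. The labels do not say that tissues at one circadian time come from the same mice, and deviations at the same time had median correlations with heart of 0.04 for adrenal gland, 0.02 for hypothalamus, 0.08 for kidney, 0.11 for lung and 0.13 for muscle, with the own time correlating best in 2 to 4 of 12 libraries. With circadian time as a replicate block, 517 genes were high and 469 low. Heart had the lowest totals, so genes of low level are limited first by depth in heart.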

Other observations

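Genes outside every list also stood high in heart; the ones named here were chosen after their values were seen, and values are means over 12 libraries with their SD. Fhl2, a LIM domain protein that binds the sarcomere, had 1887 ± 118 CPM in heart and 33.7 in adrenal gland, the next tissue, a log2 difference of 6.37. Rrad, a small GTPase that restrains the L-type calcium channel, had 342 ± 87.6 CPM in heart and at most 12.2 on average elsewhere (4.79). Kcng2, a modifying subunit of voltage-gated potassium channels, had 160 ± 14.5 CPM and 6.18 in hypothalamus (5.09). Hspb7, a small heat shock protein of muscle, had 2199 ± 184 CPM in heart and 388 in skeletal muscle (2.22). In the mitochondrial matrix, Idh2 had 2555 ± 151 CPM against 396 in muscle (2.40), and Ppif, the cyclophilin of the permeability pore, 250 ± 13.3 CPM against 46.7 in muscle (2.12). All 12 heart libraries lay above all 60 others for each of these 6 genes.

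Further genes that were low in heart were likewise chosen after their values were seen; of the same desaturase family Scd4 was high (17.1 CPM in heart), and the synthetase gene Acsl1 was neither high nor low. The desaturase gene Scd2 had 26.4 ± 4.84 CPM in heart, 58.1 in muscle and 1817 in hypothalamus, with a smallest fall of -1.39. The acyl-CoA synthetase genes Acsl3 and Acsl4 had 6.66 ± 1.23 and 16.9 ± 2.11 CPM, with smallest falls of -1.78 and -1.68. Heart lay below all 60 other libraries in Scd2, Acsl3 and Acsl4.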
